A study of Mus musculus with 4 samples.

Results

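The glucocorticoid receptor gene, the gene of an enzyme that regenerates its hormone, and 5 genes known to respond to that hormone were followed in the CA1 field of the mouse hippocampus over the hours after foot shock. All probe sets assigned to exactly 1 of the symbols Nr3c1, Hsd11b1, Fkbp5, Sgk1, Klf9, Errfi1 and Tsc22d3 were taken, which gave 9 probe sets of 7 genes out of 12488 probe sets and 8251 genes on the array. Klf9 and Errfi1 had a pair of probe sets each and the other 5 genes had 1. The animals were young male C57BL/6J mice that received 3 shocks of 0.5 mA, each lasting 1 s, and stayed in the chamber for 1 h after the last. The 4 groups were CA1 tissue taken at 1, 2, 4 and 6 h after the last shock, each with 1 Affymetrix array of total RNA. The labels name the condition shock alone, say that every group was put into the context 2 h before the shocks, and do not say how many mice went into a sample. All 4 groups were shocked, and values from unshocked mice were not used here, so a value can be read against other times but not against a resting level. Time after shock and array cannot be told apart. With 1 array per time no test was run, no p-value is given, and 4 arrays in all limit the precision.

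Corticosterone, the main glucocorticoid of mice, is released from the adrenal gland under stress and crosses into the brain. It binds the glucocorticoid receptor, a transcription factor held in the cytoplasm by heat shock chaperones, and the bound receptor moves to the nucleus and binds DNA elements made of a pair of inverted half-sites. The hippocampus is rich in this receptor and takes part in the feedback that ends the hormonal response. Several target genes act against the signal, among them Fkbp5, which lowers the affinity of the receptor for its hormone.

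Promoter windows were available for 6 of the 7 genes, 14 windows in all, each running from 250 bases before a RefSeq transcript start to 50 bases after it (build GRCm38.p6). No window was available for Nr3c1. The full palindromic glucocorticoid response element, searched as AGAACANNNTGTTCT, which reads the same on both strands, was present in 1 of the 14, a window of Sgk1 at positions -189 to -175 from that start. It was present in 3 of 32851 windows of all genes, or 0.00913%. A looser form, GNACANNNTGTNC, which overlaps the full element, was found in the same Sgk1 window and in no other member window, against 0.475% of all windows. The half-site TGTTCT, searched on both strands, occurred 5 times in the 6 Sgk1 windows and once in the 3 Tsc22d3 windows. Of the 5, 3 lay in the window with the full element, which a pair of them make up. The other member windows with a half-site held 1 each. These are counts of sites, whereas 19.0% is the share of all windows with at least 1. The cyclic AMP response element TGACGTCA, the palindrome bound by CREB, was present in 1 of the 2 Errfi1 windows at -51 to -44, against 1.79% of all windows. The single windows of Hsd11b1, Fkbp5 and Klf9 held none of these letters. A match describes the sequence and is not evidence of binding, and the array does not tell which transcript start was in use. The windows below are shown because they hold these elements, with the element named on each line in capitals (the further half-site of this Sgk1 window, at -242 to -237, is in lower case), and because Hsd11b1 was the only member at least 1.5-fold higher at 6 h over 1 h, with no match and so no capitals.
Sgk1, chr10:21993640-21993939, + strand, full response element in capitals: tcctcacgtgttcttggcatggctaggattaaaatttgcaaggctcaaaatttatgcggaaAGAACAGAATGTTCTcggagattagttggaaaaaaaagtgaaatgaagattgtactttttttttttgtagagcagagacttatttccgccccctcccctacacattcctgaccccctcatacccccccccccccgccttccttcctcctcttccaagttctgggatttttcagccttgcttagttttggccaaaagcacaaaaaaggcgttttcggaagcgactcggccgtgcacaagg
Tsc22d3, chrX:140600473-140600772, - strand, half-site in capitals: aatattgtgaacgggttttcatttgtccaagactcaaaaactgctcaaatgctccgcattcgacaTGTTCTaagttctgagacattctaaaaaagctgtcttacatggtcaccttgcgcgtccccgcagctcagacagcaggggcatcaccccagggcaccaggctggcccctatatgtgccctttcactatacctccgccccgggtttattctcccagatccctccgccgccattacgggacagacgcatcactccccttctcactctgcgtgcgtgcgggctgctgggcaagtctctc
Errfi1, chr4:150854820-150855119, + strand, cyclic AMP element in capitals: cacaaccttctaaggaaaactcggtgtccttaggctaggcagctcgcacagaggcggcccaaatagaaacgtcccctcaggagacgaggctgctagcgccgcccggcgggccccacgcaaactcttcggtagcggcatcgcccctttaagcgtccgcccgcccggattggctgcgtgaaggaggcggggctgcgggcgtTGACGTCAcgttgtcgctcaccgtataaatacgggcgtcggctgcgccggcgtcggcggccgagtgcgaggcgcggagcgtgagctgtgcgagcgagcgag
Hsd11b1, chr1:193242311-193242610, - strand: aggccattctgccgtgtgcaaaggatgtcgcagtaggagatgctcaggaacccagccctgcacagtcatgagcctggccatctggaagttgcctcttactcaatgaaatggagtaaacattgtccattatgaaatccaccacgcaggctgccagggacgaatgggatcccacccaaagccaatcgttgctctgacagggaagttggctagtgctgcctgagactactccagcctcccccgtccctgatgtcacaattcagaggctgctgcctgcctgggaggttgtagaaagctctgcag

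The values are scaled intensities, and those under a floor of 100.8 units, which 40% of the scaled values lie below, were treated as too dim to order and raised to it before taking log2. Of the 9 probe sets, 7 were above the floor on all 4 arrays, that of Tsc22d3 was above it on 3, and that of Nr3c1 on none. Nr3c1, which encodes the receptor itself, gave 25.6 units on the 1 h array, 32.6 on the 2 h array, 19.7 on the 4 h array and 31.2 on the 6 h array. All of these values lay under the floor, so this probe set gave no order of times and no fold. The level of a transcript cannot be read from a dim probe set, since its signal also depends on how well its oligonucleotides bind.

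**Figure D1:**
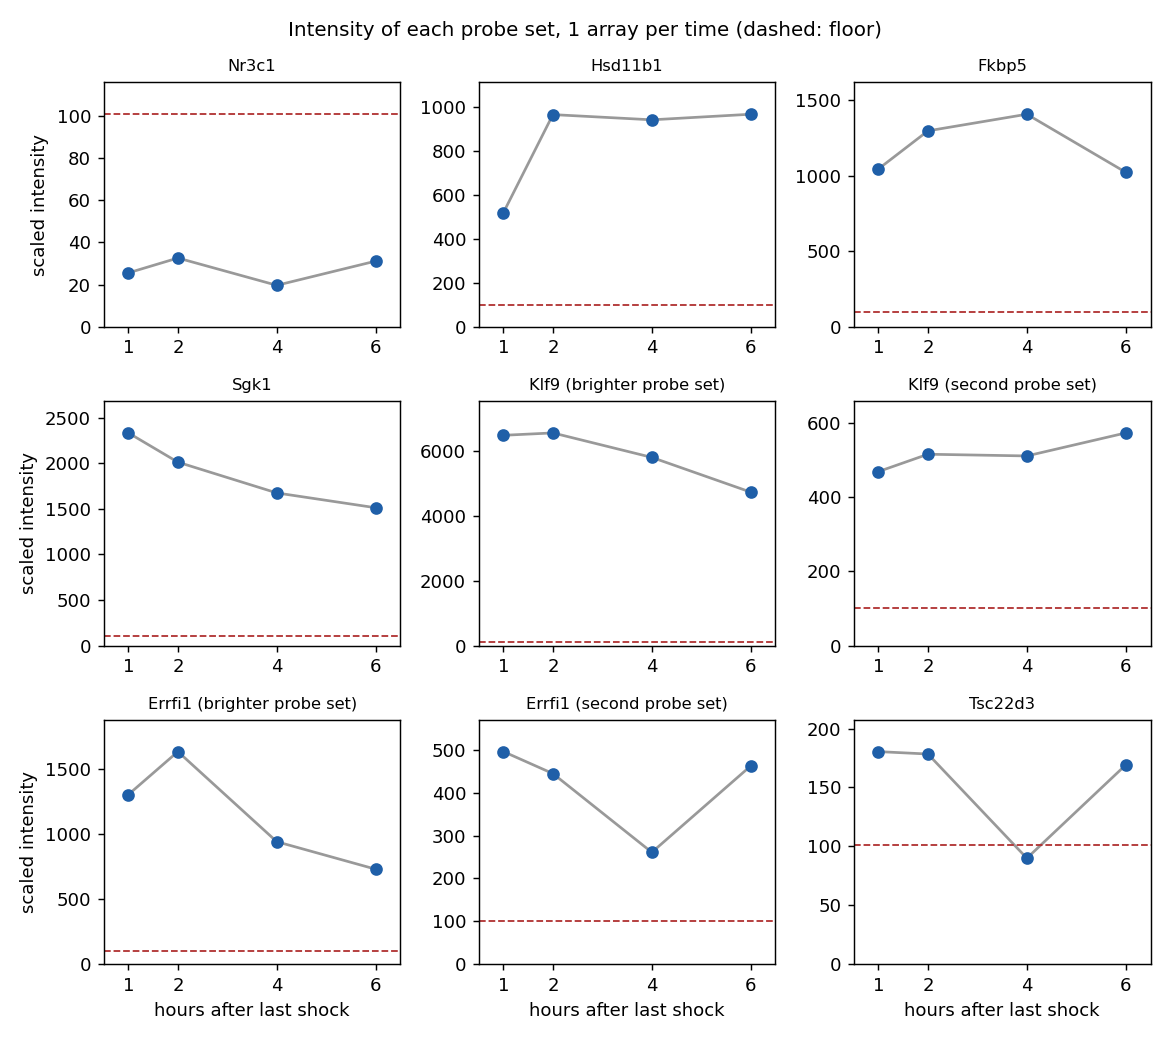
Scaled intensity (linear axis from 0, arbitrary units) of each of the 9 probe sets against hours after the last shock, with 1 array per point and the floor of 100.8 units as a dashed line. Hsd11b1 is low at 1 h alone, Sgk1 is lower at each later time, Tsc22d3 and the second Errfi1 probe set are low at 4 h, and Nr3c1 lies under the floor throughout.

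Hsd11b1 encodes the enzyme that turns the inert keto form of the hormone back into active glucocorticoid inside cells. Its probe set gave 519.7 units on the 1 h array, 965.2 on the 2 h array, 941.5 on the 4 h array and 966.9 on the 6 h array. The 1 h array stood alone at the low end, and the other 3 lay within 1.03-fold of each other. Among the 1610 probe sets of the same brightness quartile, 0.932% had so small a span over 2, 4 and 6 h, and the median span there was 1.22-fold. This share was computed for Hsd11b1 alone with its values known, so it describes the course and is no test of it. It also depends on scaling, since after common median scaling the 6 h value lay 0.12 (log2) above the 2 h value, against 0.003 here. At 6 h over 1 h the enzyme's transcript was 1.86-fold higher, a log2 difference of 0.90, and 1.24% of its quartile lay as far from 0 in this comparison. Over the same 1 h array it was 1.86-fold higher at 2 h and 1.81-fold higher at 4 h, so that 1 array enters all of these folds. Of the 6442 probe sets above the floor on all 4 arrays, 60, or 0.931%, were lower at 1 h than at each other time by at least 1.5-fold, as Hsd11b1 was.

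H6pd, the hexose-6-phosphate dehydrogenase that supplies the cofactor of this enzyme inside the endoplasmic reticulum, gave 1381, 1397, 1349 and 1353 units in time order, a span of 1.04-fold. Hsd11b2, the enzyme that inactivates glucocorticoid, was under the floor on all 4 arrays. Abcb1a, which encodes the P-glycoprotein efflux pump of the blood-brain barrier, was near the floor, with 104.0, 125.9, 132.3 and 99.0 units in time order. Of the 7 genes listed for steroid metabolism and transport, 5 were on the array and H6pd and Abcb1a were the 2 with a mean above the floor.

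Fkbp5 encodes a co-chaperone of the receptor and is itself a target gene. The 1 h array gave 1045 units, the 2 h array 1297, the 4 h array 1407 and the 6 h array 1023. The 4 h array was highest and the first and last times were nearly equal, 1.02-fold apart, with the 6 h value the lower one except after scaling to a common median (log2 difference 0.05). Fkbp5 was 1.35-fold higher at 4 h over 1 h, and 1.38-fold lower at 6 h over 4 h. In its brightness quartile 10.7% of probe sets lay as far from 0 at 4 h over 1 h, and 7.64% at 6 h over 4 h. Its mean of 1193 units lay at the upper edge of this quartile, which ends at 1194, so it was set beside dimmer probe sets for the most part. Its span of 1.38-fold was reached or passed by 30.9% of that quartile.

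Sgk1 encodes a serine-threonine kinase that regulates ion channels and transporters and is a classic corticosteroid target. The 1 h array gave 2334 units, the 2 h array 2013, the 4 h array 1675 and the 6 h array 1513. Each later array was lower than the one before. Of the 6442 probe sets above the floor on all 4 arrays, 313, or 4.86%, were also lower at every later time. At 6 h over 1 h this gene, which has the full response element in a promoter window, was 1.54-fold lower, and 1.37% of its quartile, the brightest, lay as far from 0. After scaling the arrays to a common median it was 1.46-fold lower, short of the 1.5-fold limit. Over 1 h, Sgk1 was 1.16-fold lower at 2 h and 1.39-fold lower at 4 h.

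Klf9 encodes a Krüppel-like transcription factor that is induced by glucocorticoids and by thyroid hormone. Its brighter probe set gave 6485 units on the 1 h array, 6559 on the 2 h array, 5804 on the 4 h array and 4732 on the 6 h array. The first pair of times were level and the 6 h array was lowest, 1.37-fold under 1 h. This probe set carries the suffix given to designs whose oligonucleotides can match more than 1 transcript. The second probe set of Klf9 ran the other way, with 468.6, 515.2, 510.6 and 572.6 units in time order, and at 6 h over 1 h was 1.22-fold higher. Their log2 differences at 6 h over 1 h were 0.74 apart, and 9.04% of 697 genes with a pair of probe sets above the floor differed as much. With both probe sets averaged on the log2 scale, the Klf9 difference at 6 h over 1 h was -0.08, against -0.45 for the brighter one alone.

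Errfi1 encodes Mig-6, a feedback inhibitor of the epidermal growth factor receptor family. Its brighter probe set gave 1306 units on the 1 h array, 1636 on the 2 h array, 943.0 on the 4 h array and 731.4 on the 6 h array. The 2 h array was highest and the 6 h array lowest, and the span of 2.24-fold was reached by 1.43% of its brightness quartile. The 6 h value was 1.79-fold lower than the 1 h value and 2.24-fold lower than the 2 h value. The second probe set gave 495.7 units on the 1 h array, 444.5 on the 2 h array, 260.9 on the 4 h array and 462.4 on the 6 h array, so that the 4 h array alone was low. At 4 h over 2 h both probe sets were lower by nearly the same factor, 1.74-fold for the brighter and 1.70-fold for the second, but at 6 h over 4 h the brighter was 1.29-fold lower and the second 1.77-fold higher. A discrepancy of that size, 1.19 on the log2 scale, was met or passed by 3.34% of 689 genes with a pair of probe sets above the floor.

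Tsc22d3 encodes the glucocorticoid-induced leucine zipper protein, an anti-inflammatory target of the receptor. The 1 h array gave 180.4 units, the 2 h array 178.4, the 4 h array 90.0 and the 6 h array 169.2. The 4 h value lay under the floor and the other 3 were within 1.07-fold of each other. Relative to 1 h the transcript was at least 1.79-fold lower at 4 h, a bound set by the floor, and 1.07-fold lower at 6 h. Of 6607 probe sets above the floor at 1, 2 and 6 h, 101, or 1.53%, were lower at 4 h than at each of those times by at least 1.5-fold, and Tsc22d3 was among them. The second Errfi1 probe set, above the floor on all 4 arrays, was among the 65 of 6442, or 1.01%, that stood so low at 4 h. Both shares are over all brightnesses and were not computed for dim probe sets alone. Tsc22d3 was in no quartile, but its mean of 154.5 units lay in the range of the dimmest, 107.6 to 280.3. At 4 h over 1 h, 16.4% of that quartile passed 1.5-fold in either direction, against 8.71% of 6886 probe sets of all brightnesses. A fold of this size was therefore more common among dim probe sets.

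**Figure D2:**
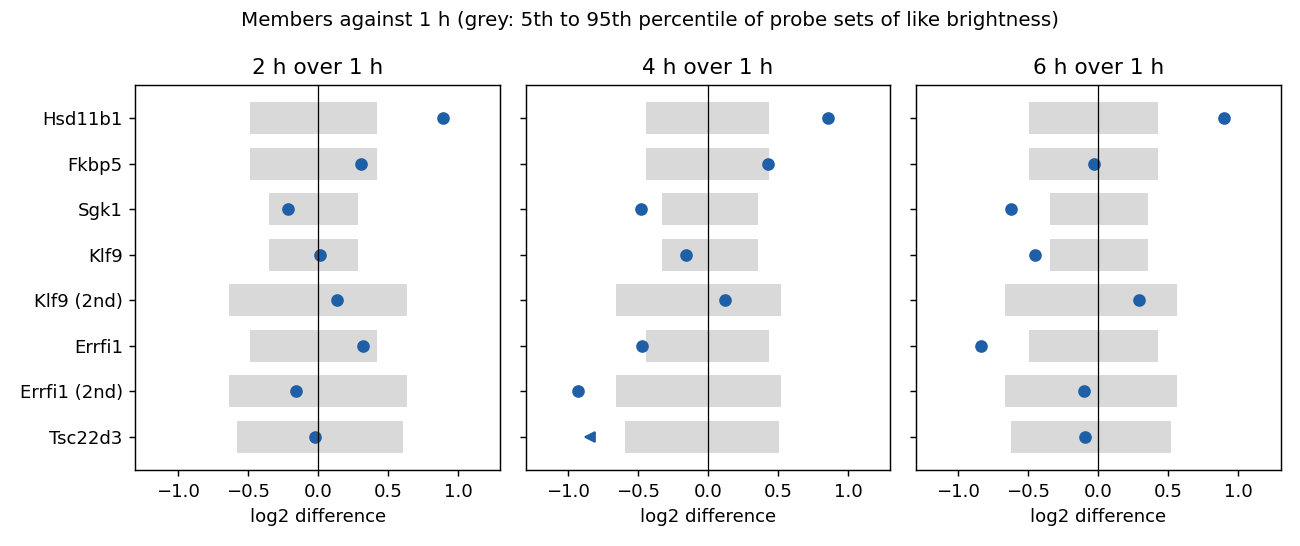
Log2 difference of each member probe set (rows) at 2, 4 and 6 h over 1 h, as points, with the triangle for Tsc22d3 at 4 h marking a bound, and grey bars for the 5th to 95th percentile of probe sets in the same brightness quartile (of all probe sets for Tsc22d3). At 6 h, Hsd11b1 lies above its bar at 0.90, and Sgk1 at -0.63, the brighter Klf9 probe set at -0.45 and the brighter Errfi1 probe set at -0.84 lie below theirs.

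Taking the brighter probe set where a gene had a pair, 5 of the 6 genes with a mean above the floor had a lower value at 6 h than at 1 h, and Hsd11b1 a higher one. After scaling to a common median Fkbp5 turned, leaving 4 of 6 lower. Of 5291 genes above the floor on both arrays, 51.8% were lower at 6 h. Past the 1.5-fold limit, Hsd11b1 was higher and Sgk1 and Errfi1 were lower, 3 of 6, where 9.02% of the 5291 genes passed that fold in either direction. After common median scaling Sgk1 dropped out, and with the probe sets of a gene averaged Errfi1 did, at -0.47 (log2), since its second probe set was 1.07-fold lower. Either leaves 2 of 6. The median log2 difference of the 6 genes was -0.27, against -0.01 over all genes with a mean above the floor. It was -0.088 with the probe sets of a gene averaged. At 4 h over 1 h, 4 of the 6 were lower, as 51.1% of genes were, and their median was -0.32. In that comparison 2 passed 1.5-fold, Hsd11b1 upward and Tsc22d3 downward as a bound, where 8.44% of the 5317 genes above the floor on both arrays did. With bounds counted as for Tsc22d3, 10.7% of the 5671 genes with a mean above the floor did. With the probe sets of a gene averaged 3 members passed the limit, since Errfi1 was then at -0.70 (log2). At 2 h over 1 h Hsd11b1 alone passed it, where 9.80% of genes did, and 2 of the 6 were lower (3 after common median scaling), as 49.9% of genes were. These comparisons share the 1 h array. Because the genes were chosen with results of these arrays known, their shares are a description and were not tested.

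The comparisons among later arrays do not involve the 1 h array. At 4 h over 2 h, Errfi1 and Tsc22d3 passed 1.5-fold downward, where 10.8% of genes passed in either direction (13.8% with bounds counted), and 5 of the 6 genes were lower by any size (4 after common median scaling), as 51.8% of genes were. At 6 h over 2 h Errfi1 alone passed, where 10.9% of genes did. Its second probe set was 1.04-fold higher in that comparison, and with both averaged the difference was -0.55 (log2), so that 0 genes passed. In the same comparison 5 of the 6 were lower (4 after common median scaling), as 51.4% of genes were, around a median of -0.38. At 6 h over 4 h Tsc22d3 alone passed, at least 1.68-fold higher, where 7.43% of genes did, or 9.54% with bounds counted. In every one of these 3 comparisons Hsd11b1 differed by 0.04 or less on the log2 scale, or by up to 0.12 after common median scaling.

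Pairs of probe sets for 1 gene show how far a single probe set can be relied on here. At 6 h over 1 h, 401 of 697 such genes, or 57.5%, had both probe sets on the same side of 0, and the median gap between them was 0.29 on the log2 scale. Where the brighter one passed 1.5-fold, the second lay on the same side in 29 of 49 genes. Hsd11b1, Fkbp5, Sgk1 and Tsc22d3 each rest on 1 probe set.

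Genes whose course over the 4 times was most like that of a member were sought among 1319 genes (1320 for Tsc22d3) above the floor with a span of at least 1.5-fold, by the root mean square difference of centred log2 values. For Sgk1 these were Tenm4, a teneurin adhesion protein, with a difference of 0.01, then Vac14 and Mcl1, a survival factor of the Bcl-2 family, with 0.02 and 0.03. Mcl1 gave 569.1, 495.8, 397.2 and 356.2 units in time order. For Hsd11b1 they were Lgals1, which encodes galectin-1, with 0.03, then G0s2, an inhibitor of fat breakdown, and Ptbp3, an RNA-binding protein, both with 0.05. Lgals1 had 434.6 units at 1 h and 772.9, 739.7 and 767.3 at the later times, the same step after 1 h. Errfi1 was matched most closely by Fzd2, a Wnt receptor, with 0.04, then Dnaaf5, a dynein arm assembly factor, and Cyp4a12b, a cytochrome P450, both with 0.06. Tsc22d3 was matched by Eln, which encodes elastin, with 0.03, then Hdhd5 and the class I histocompatibility gene H2-M2, both with 0.05. Eln had 262.7 units at 4 h and between 440.0 and 493.2 at the other times. With 4 points a close match is easily found, so this is a description of courses only.

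Of 34 other genes listed as glucocorticoid targets, 32 were on the array and 25 had a mean above the floor. At 6 h over 1 h, 18 of the 25 were lower and 7 higher, where 51.8% of genes were lower. Their median log2 difference was -0.19, against -0.01 over all genes, and it was -0.11 after common median scaling and -0.12 with the floor at the lower, 20th percentile. By at least 1.5-fold 1 was lower and 1 higher, 8% of the list, beside 9.02% of all genes. This count takes the brightest probe set of each gene. Second probe sets of Cdkn1a, Zbtb16, Nfkbia, Glul and Gjb6 also passed that limit downward. They had 181.1 units at 6 h against 343.1 at 1 h, 150.3 against 283.1, 418.4 against 762.5, 293.5 against 530.1 and 253.2 against 381.2. A further probe set of Angptl4 was higher, with 190.9 against 49.2, and another lower, with 47.5 against 191.5. Cdkn1a, the cell cycle inhibitor p21, gave 406.6, 482.5, 270.0 and 137.4 units in time order, the widest span of the list. Slc2a1, the glucose transporter of the blood-brain barrier, gave 221.0, 298.4, 310.2 and 337.5 units in time order, higher at each later time, and the 6 h value was 1.53-fold that at 1 h. Mertk, a phagocytic receptor kinase, had 369.1 units at 2 h and between 156.6 and 226.2 at the other times. Txnip, the thioredoxin-interacting protein, had 298.0 units at 6 h and 424.5 at 1 h, although its second probe set had 220.1 and 226.9. The brighter Txnip probe set carries the same suffix as the brighter one of Klf9.

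Mt2, a metallothionein, had 18542 units at 6 h and 21920 at 1 h, and Mt1 had 13241 at 6 h and 12663 at 1 h. Per1, the clock gene with a response element, gave 441.0, 444.8, 313.3 and 385.3 units in time order, lowest at 4 h as Tsc22d3 was. Glul, glutamine synthetase, gave 803.8, 411.0, 568.8 and 660.6 units in time order. Its second probe set was likewise lower at 2 h, with 347.4 units against 530.1 at 1 h, but at 6 h it had its lowest value, 293.5 units, where the brighter one had 660.6.

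**Figure D3:**
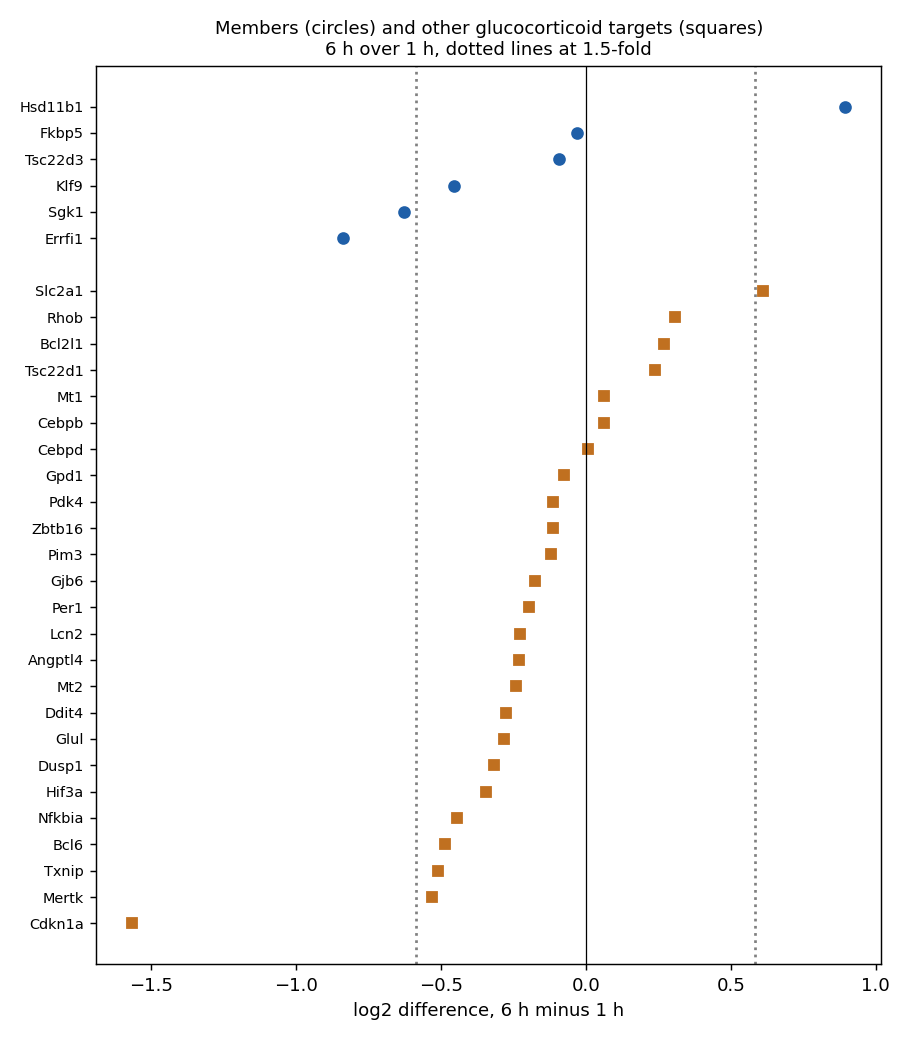
Log2 difference at 6 h minus 1 h (horizontal axis) for the 6 members with a mean above the floor (circles, upper block) and the 25 other glucocorticoid targets (squares, lower block), 1 probe set per gene, with dotted lines at 1.5-fold. Most points lie left of 0, and Hsd11b1 at the right and Cdkn1a at the left are the ends of the range.

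Of 20 listed chaperones and cofactors of the receptor, 14 were on the array and 13 had a mean above the floor, of which 8 were lower and 5 higher at 6 h over 1 h, beside 51.8% lower among all genes. Their median was -0.03, or 0.05 with 6 lower after common median scaling. Stip1, the adaptor that passes clients from Hsp70 to Hsp90, had 292.9 units at 1 h and 175.7, 204.0 and 189.8 at 2, 4 and 6 h, highest at 1 h. Ncoa1, a steroid receptor coactivator, had 513.5, 465.3, 350.5 and 341.2 units in time order. It was lower at each later time, and the difference at 6 h over 1 h just passed the 1.5-fold limit, which after common median scaling it missed, at 1.42-fold. Nrip1, a corepressor, was higher on the last pair of arrays, with 772.9, 836.1, 1165 and 1039 units in time order. Bag1, a co-chaperone, had its lowest value at 2 h, 760.5 units against 1187 at 1 h. Hsp90aa1, the Hsp90 chaperone itself, had 18264 units at 6 h and 23176 at 1 h.

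Several properties of the arrays differed between times. The ratio of the 3' to the 5' actin control was 2.70 at 2 h and between 1.74 and 1.84 at the other times. The same ratio for the Gapdh control was 3.98, 4.82, 3.85 and 3.24 in time order. For the 18S ribosomal RNA control it was 2.33, 2.42, 2.91 and 4.88, higher at each later time while Sgk1 was lower, and highest on the 6 h array that enters the 6 h over 1 h values. The spike-in controls, added transcripts whose amount is fixed, had a geometric mean relative to 1 h of 1.16 at 2 h, 0.94 at 4 h and 0.87 at 6 h. It was 1.16 on the array where the brighter probe sets of Errfi1 and Klf9 were highest and 0.87 where these and Sgk1 were lowest, while the second probe sets had other courses, that of Klf9 highest at 6 h and that of Errfi1 lowest at 4 h. The part of these array properties in the results was not tested.

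Sgk1, Tsc22d3 and Klf9 are made by several cell types, and in bulk tissue fewer cells of a type and less RNA per cell cannot be told apart. The endothelial and mural markers, 12 of 15 on the array and 9 with a mean above the floor, summed to 1885, 1551, 1628 and 1323 units in time order. At 6 h over 1 h 8 of the 9 were lower, where 51.8% of all genes were. These and the other marker sums take scaled values without the floor. Part of the lower sum at 6 h comes from values under the floor, 40.5 units for Pecam1 and 76.5 for Vwf, which had 196.6 at 1 h. Of the defining endothelial genes, Cldn5, Flt1 and Kdr were above the floor on all 4 arrays. Tek, Cdh5 and Tie1 had means under it, and Pecam1 was above it at 1 h alone, with 216.7 units. Cldn5 and Flt1 were lower at 6 h over 1 h, with 319.6 units against 392.8 and 213.8 against 341.9, and Kdr was higher, with 174.1 against 129.8. Astrocyte markers, 9 measured of 12 listed, summed to 23969, 24318, 21738 and 22214 units in time order. Oligodendrocyte markers, 8 measured of 11, summed to 26302, 26673, 28031 and 29072 units, higher at each later time. By gene, 4 of the 8 were higher at 2 h over 1 h, 4 at 4 h and 7 at 6 h. Of all genes 49.9%, 51.1% and 51.8% were lower in these comparisons. Mal, the 1 lower at 6 h and the gene of widest span in this list, had 1218 units against 1880 at 1 h. Microglial markers, 8 measured of 11, stayed between 9198 and 9856 units. The blood markers, 2 measured of 6, summed to 2882 units at 1 h and between 3291 and 3756 later, of which Hba-a1 gave 2783 at 1 h, and Slc4a1 was under the floor at 1 and 4 h. The oligodendrocyte and CA1 pyramidal sums were likewise lowest at 1 h. Their part in the results was not tested.

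The tissue carried the markers of CA1 pyramidal cells, 6 measured of 10 listed, which summed to 8943, 9777, 11287 and 11062 units in time order. At 6 h over 1 h 4 of the 6 were higher and 2 lower, where 51.8% of all genes were lower. Wfs1 and Neurod6 were among the CA1 markers above the floor on all 4 arrays, while Camk2a was above it at 1 h alone. Dentate and CA3 markers, 3 measured of 9, summed to between 2557 and 3262 units. Of these, Calb1 and Dsp had the widest spans and were above the floor on all 4 arrays, with 2412.5 and 167.1 units at 1 h. Prox1, the defining gene of dentate granule cells, was under the floor on all 4. A dim probe set does not show that such cells were absent. Choroid plexus markers, 6 measured of 10, summed to 8294 units at 6 h and between 1831 and 2375 at the other times. Ttr, transthyretin, made up most of that difference in the sum, with 4482 units at 6 h. With the 4 h array taken in place of the 6 h array, 4 of the 6 member genes were lower than at 1 h around a median of -0.32. Of the 25 other targets, 17 were lower around a median of -0.046. Among all genes 51.1% were lower at 4 h, and the median over those with a mean above the floor was -0.007.

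**Figure D4:**
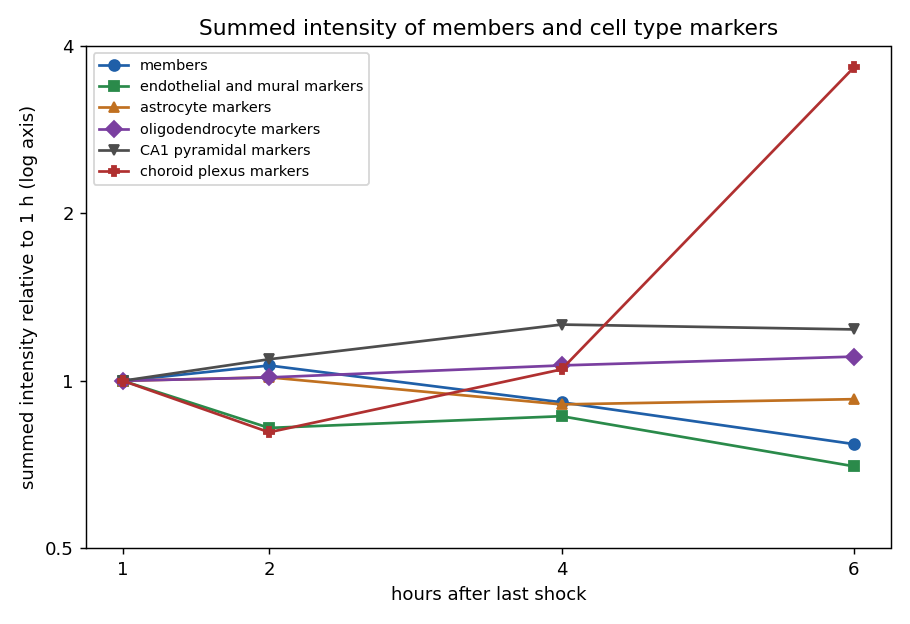
Summed intensity of the 6 measured members and of 5 marker lists relative to the 1 h array (vertical log axis), against hours after the last shock, with 1 array per time. The sums take scaled values without the floor. The member sum is 0.77 at 6 h, or 0.82 without Klf9, whose brighter probe set makes up 1753 of the 2736 units between 1 h and 6 h, and the endothelial and mural markers are at 0.70 and the choroid plexus markers at 3.66.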

How the data were processed

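The deposited table holds intensity values for 12488 probe sets on 4 arrays, 1 per time. The authors had brought the intensity values to a common level, since a mean trimmed by 2% at both ends came to 500.3 for every array. The software is not given in the sources used here, and no detection call was used. Names came from the platform annotation, which gave 10833 of 12422 probe sets other than the 66 controls 1 symbol, 396 several and 1193 none. Arrays were rescaled to a common 2% trimmed mean without controls (factors 0.999 to 1.001), values under 100.8, the 40th percentile, were raised to this floor, and the log2 scale was used. The brightest probe set stood for a gene in counts. Brightness quartiles were formed from the mean over the 4 arrays of the 6442 probe sets above the floor throughout. No test was run, and the steps were tested on simulated data. The members and gene lists were chosen with earlier results of these data known. Named by rule were all members, the 3 genes most like each member with a span of at least 1.5-fold, and, per pathway list, up to 4 genes of widest span and those past 1.5-fold at 6 h over 1 h. H6pd, Abcb1a, Stip1, Bag1, Ncoa1, Nrip1, Cdkn1a, Glul, Mertk, Txnip and Slc2a1 came from that rule. Of the markers, up to 2 per list were named by span. Hsd11b2, Mt1, Mt2, Per1, Zbtb16, Nfkbia, Gjb6, Angptl4, Hsp90aa1, Cldn5, Flt1, Kdr, Tek, Cdh5, Tie1, Camk2a and Prox1 were named after their values were seen. Sequences are from RefSeq (GRCm38.p6). Alternatives covered scaling, floor, fold limit, probe set averaging and arrays left out. Computations ran in Python 3.11.15 with pandas 2.3.3 and NumPy 2.4.6, and figures in matplotlib 3.10.9.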

Additional observations from a re-analysis of the deposited data

How the results depend on the processing

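No paired analysis was possible because each time has 1 array. The count of member genes lower at 6 h than at 1 h was 5 with the values as deposited, quantile normalization, the floor at the 20th percentile and probe sets averaged, and 4 after scaling to a common median, where Fkbp5 turned, and at the 60th percentile floor, which Tsc22d3 does not reach. Common median scaling moved the median of all probe sets above the floor by 0.08 (log2) at 6 h over 1 h and 0.12 at 6 h over 2 h. The Sgk1, Errfi1 and Hsd11b1 differences at 6 h over 1 h kept their direction in every setting that recomputed them, and that of Sgk1 missed 1.5-fold after common median scaling, as that of Errfi1 did with probe sets averaged (-0.47). The median difference, -0.27, was -0.45 at a 60th percentile floor, which leaves fewer genes, and -0.088 with the probe sets of a gene averaged. With that floor, members past 1.5-fold numbered 1 at 4 h over 1 h, 1 at 4 h over 2 h and 0 at 6 h over 4 h, since Tsc22d3 drops out. With probe sets averaged, 3 passed at 4 h over 1 h and 0 at 6 h over 2 h. With a limit of 1.3-fold, 5 passed at 4 h over 1 h, 3 at 6 h over 2 h and 2 at 6 h over 4 h. With a limit of 2-fold, 0 passed at 2, 4 and 6 h over 1 h, at 4 h over 2 h and at 6 h over 4 h, and Errfi1 alone passed at 6 h over 2 h. The share of all genes past 1.3-fold or 2-fold was not computed, so the counts at these limits have no background here. The 2 genes of steroid metabolism and transport, both lower at 6 h than at 1 h, numbered 0 after scaling to a common median, 1 after quantile normalization and 1 at the higher floor. An alternative added after seeing the data, the 4 h array in place of 6 h, gave a median of -0.046 for the other targets. Among 339 recomputed values of single genes, 303 moved by less than 0.1 (log2) or kept their time, 36 moved and 0 turned direction past 1.5-fold. The log2 span of Hsd11b1 without the 1 h array was 0.04 and that of Tsc22d3 without the 4 h array 0.09, so 1 array sets each. Without any one array the span of Sgk1 was at least 0.41 and that of Errfi1 at least 0.80.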
